A study of Mus musculus with 6 samples.

Results

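Acylceramides are the skin-specific lipids that hold water in the epidermis, and the 10 genes examined here carry the steps by which keratinocytes make them and build them into the corneocyte lipid envelope. The genes were taken by symbol from the deposited count table, which held 55416 genes in all, and every one of the 10 was found and passed the filter on low counts. They are the elongases Elovl4 and Elovl1, the omega-hydroxylase Cyp4f39, the ceramide synthase Cers3, the transacylase Pnpla1 with its partner Abhd5, the glucosyltransferase Ugcg, the lipid transporter Abca12, and the lipoxygenases Alox12b and Aloxe3.

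In this pathway a fatty acid is lengthened to an extreme chain length, hydroxylated at its far end and joined to a sphingoid base to give an omega-hydroxyceramide. Linoleic acid is then esterified to the hydroxyl group, the product is glucosylated and packed into lamellar granules, and after secretion the linoleate is oxidised so that the ceramide can be attached to the proteins of the cornified envelope. Inherited loss of many of these enzymes in people causes ichthyosis, a scaling disorder with a leaky skin barrier.

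The libraries came from primary keratinocytes of wild type and C/EBPβ knockout pups, 1 to 2 days old, of a C57BL/6J:129 hybrid background. Cells grew in serum-free medium with human EGF and bovine pituitary extract at 0.05 mM calcium, a concentration that keeps most keratinocytes in a basal state, and were treated 5 days after plating. All 6 libraries, 3 wild type (replicates 1 to 3) and 3 knockout (replicates 4 to 6), received 10 mJ/cm2 of UVB and were taken 8 h later, so no unirradiated level is available here and each value describes the genotypes after UVB only. The labels give neither the design of the deleted allele nor the animal or culture behind each library. The spread used for p-values is that between these samples, and it may be technical.

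Library totals lay between 81256192 and 122797031 counts, and the lowest count of any of the 10 genes in any library was 255. Cebpb, the deleted gene, was at 163, 152 and 121 CPM (counts scaled to the effective library size) in wild type libraries and at 0.820, 1.10 and 0.907 CPM in knockout libraries. Of 7 keratinocyte markers 6 were called lower and 1, Itgb4, higher in knockout cells (382 and 547 CPM on average). Of all genes tested, 23.7% were called lower and 24.8% higher. The summed level of these markers, most of it from Krt5 and Krt14, was 35245 to 40064 CPM in wild type and 20533 to 21651 CPM in knockout libraries. The 6 melanocyte markers summed to 679.99 to 769 and 597 to 676 CPM (4 called lower), the 6 fibroblast markers to 4.82 to 6.37 and 4.01 to 4.44 CPM (1 of 4 tested lower, Lum at 0), the 6 immune markers to 3.46 to 5.42 and 2.34 to 2.45 CPM (both tested lower, Cd3e at 0), the 4 endothelial markers to 6.43 to 6.92 and 4.46 to 5.32 CPM (1 of 2 tested lower, Cdh5 at 0), and the 6 sebocyte markers to 0.278 to 0.688 and 0.609 to 1.14 CPM (1 of 3 tested, Mc5r, higher). A list for Merkel cells rose from between 122 and 127 to between 1312 and 1540 CPM through Krt8 and Krt18, while its other genes Krt20 and Atoh1 were at 0.524 and 0.323 CPM in wild type and 0.365 and 0.262 CPM in knockout cells. Transcripts of 4 Y-linked genes summed to 60.7 to 68.1 CPM in wild type and 0.101 to 0.158 CPM in knockout libraries. A difference in sex between the groups thus runs with genotype in all 6 libraries and cannot be told apart from it here. The part of the other differences of this paragraph in the results below was not tested.

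All 10 acylceramide genes were lower in knockout cells. Each was called lower by the quasi-likelihood test of edgeR, with an adjusted p (Benjamini-Hochberg, over the 17659 genes tested) of 5.05e-05 or less. Of all tested genes, 23.7% were called lower. Every knockout library was below every wild type library for each of the 10, as was so for 27.6% of all tested genes. Their median log2 fold change was -1.57, against 0.01 over all tested genes. Of the 10, 7 were called lower by at least 1 log2 unit (5.94% of all genes tested) and 3 by at least 2 (2.22% of all genes tested). Together they held 0.0811% to 0.0874% of the counts in wild type libraries and 0.0416% to 0.0447% in knockout libraries. In bulk RNA, fewer cells that express a gene and less of its RNA per cell cannot be told apart.

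**Figure D1:**
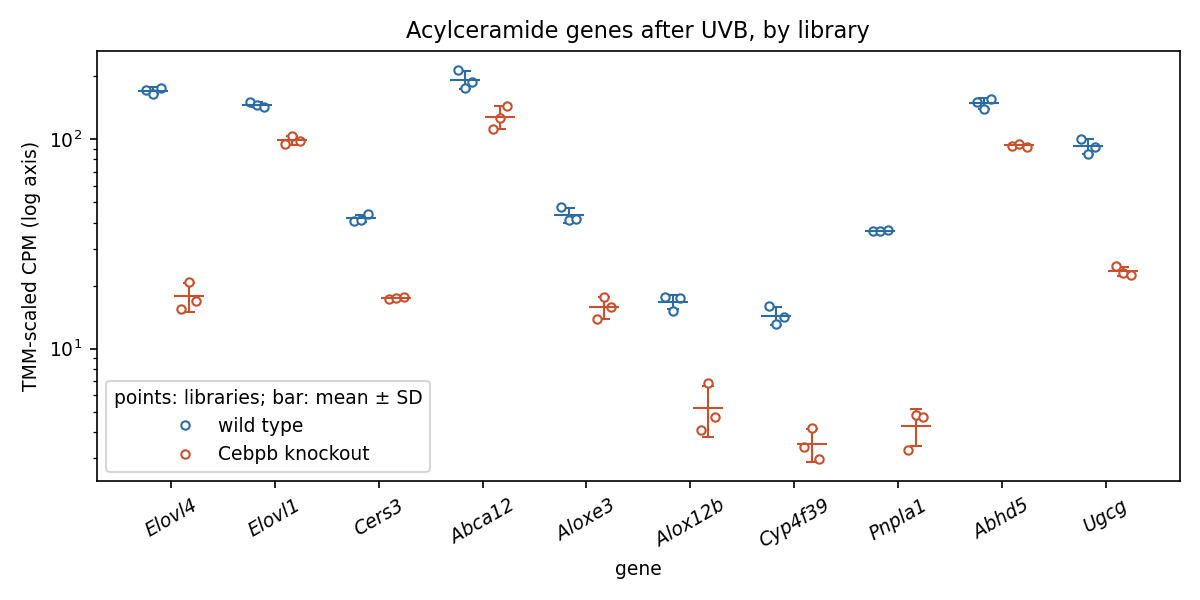
TMM-scaled CPM on a log axis for the 10 genes, with 1 point per library and the mean ± SD of 3 wild type (blue) and 3 knockout (orange) libraries. No gene has overlapping groups; the widest gaps are those of Elovl4 and Pnpla1, and the narrowest those of Elovl1, Abca12 and Abhd5.

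The start sites of the genes with the deepest and the shallowest fall are shown first, because the 10 genes moved in the same direction by very different amounts. RefSeq (GRCm38.p6, an older build than the GRCm39 the authors' notes name) held a start window for 9 of the 10 genes. Each line gives the 250 bases before the annotated start, 5′ to 3′ on the gene's strand, with CpG dinucleotides in capitals. Elovl4 lies at chr9:83806306-83806555 (minus strand), Pnpla1 at chr17:28858161-28858410 (plus strand) and the upstream start of Elovl1 at chr4:118427843-118428092 (plus strand).
Elovl4: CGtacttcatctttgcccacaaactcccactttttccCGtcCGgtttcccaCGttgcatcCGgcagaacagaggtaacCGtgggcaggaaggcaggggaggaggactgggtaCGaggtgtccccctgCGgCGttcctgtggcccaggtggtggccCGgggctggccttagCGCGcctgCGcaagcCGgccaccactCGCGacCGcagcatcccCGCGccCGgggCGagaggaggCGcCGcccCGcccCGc
Pnpla1: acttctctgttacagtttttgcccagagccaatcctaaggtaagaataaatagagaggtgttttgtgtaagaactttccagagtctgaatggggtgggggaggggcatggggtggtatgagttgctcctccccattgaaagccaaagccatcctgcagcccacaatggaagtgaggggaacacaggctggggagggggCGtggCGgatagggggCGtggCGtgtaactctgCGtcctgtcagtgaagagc
Elovl1: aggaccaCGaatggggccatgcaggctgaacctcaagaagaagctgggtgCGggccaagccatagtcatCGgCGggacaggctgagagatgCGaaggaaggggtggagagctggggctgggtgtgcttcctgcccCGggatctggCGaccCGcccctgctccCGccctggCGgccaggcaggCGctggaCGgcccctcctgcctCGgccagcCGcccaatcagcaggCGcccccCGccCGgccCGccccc

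Elovl4 and Pnpla1, which fell furthest, have unlike windows, with 25 CpG and 69.6% G and C in the former and 5 CpG and 54.0% in the latter. The Elovl1 window shown had 18 CpG and 72.0%, and that of the other annotated Elovl1 start (chr4:118429451-118429700) had 5 CpG and 58.0%. Over all 32851 windows of the table the medians were 6 CpG and 52.4%. Ugcg had the most CpG of the 9 genes, 43, and its fall was close to that of Cyp4f39, with 10. A relation between CpG content and the size of the fall was not tested. None of the 10 windows of these genes (Elovl1 has 2) held the C/EBP core TTGCNNAA, the Grainyhead-like core AACCNGTT, the AP-1 core TGANTCA or the box TATAAA on either strand. Of all windows 9.56%, 1.79%, 6.75% and 12.4% held them. The absence concerns these 250 bases and these letters only, and 10 windows are too few to tell it from those shares.

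Of the elongase genes, Elovl4 had a deep and Elovl1 a shallow fall. Elovl4 (ENSMUSG00000032262), the elongase of ultra-long chains, was at 171, 164 and 176 CPM in wild type libraries and at 15.5, 20.9 and 16.9 CPM in knockout libraries. The knockout mean was 10.4% of the wild type mean, the lowest share of the 10 genes, and the log2 fold change was -3.26 ± 0.09 (SE, n = 3 each, edgeR adjusted p = 2.36e-13). Elovl1 (ENSMUSG00000006390), which supplies the very long chains that Elovl4 extends, was at 149.7, 146 and 142 CPM against 94.7, 104 and 98.0 CPM. Its fall of 0.56 ± 0.06 log2 units (SE, n = 3 each, edgeR adjusted p = 7.49e-07) was the smallest of the 10, and was 0.37 when libraries were scaled by their totals. Within each library, reads of Elovl4 were 1.14, 1.12 and 1.24 times those of Elovl1 in wild type and 0.164, 0.202 and 0.173 times in knockout cells. That ratio does not depend on how libraries are scaled, and it was 6.54-fold lower in knockout cells (two-sided exact permutation test, p = 0.1, the smallest that 3 against 3 allows, and adjusted p = 0.12 over 6 ratios).

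The rest of the elongase family was measured too. Elovl7 fell by 0.86 ± 0.09 log2 units (SE) to 26.7 ± 3.24 CPM (SD) and Elovl6 by 0.69 to 2.38 ± 0.496 CPM, while Elovl5, at 8.45 ± 0.572 and 10.3 ± 1.89 CPM, was not called (edgeR adjusted p = 0.092). Elovl5 was called higher with library totals (log2 fold change 0.48) and without knockout replicate 5 (0.43). Elovl2 and Elovl3 had at most 7 counts in a library. Per kilobase of exon, Elovl4 held 45.1% ± 1.34 of the family's level in wild type and 11.3% ± 1.48 in knockout cells, and Elovl1 held 42.9% ± 1.10 and 69.6% ± 1.52 (SD, n = 3 each). The per-length level of the whole family fell from 125 ± 2.82 to 52.0 ± 1.57 CPM per kb, so Elovl1 took a larger share of a smaller pool.

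The transcript of the hydroxylase was lower as well. Cyp4f39 (ENSMUSG00000061126), the cytochrome P450 that adds the omega-hydroxyl group, was at 16.0, 13.0 and 14.1 CPM in wild type and 3.38, 4.20 and 2.97 CPM in knockout libraries. The difference was -2.03 ± 0.14 log2 units (SE, n = 3 each, edgeR adjusted p = 5.98e-09). It was the single one of the 5 tested genes of its family to be called in either direction, as 48.6% of all tested genes were. Cyp4f13, Cyp4f16, Cyp4f17 and Cyp4f37 had log2 fold changes of 0.20, 0.03, 0.12 and 0.03. Cyp4f13 and Cyp4f17 were called higher with library totals (0.40 and 0.32) and without wild type replicate 1 (0.31 and 0.21). Cyp4f39 thus went from 15.5% ± 0.751 to 3.97% ± 0.619 of the family's per-length level, which was 32.5 ± 3.22 CPM per kb in wild type and 31.0 ± 0.809 CPM per kb in knockout cells (SD, n = 3 each). No stretch of 150 bases, the read length, was shared between annotated transcripts of Cyp4f39 and those of another gene.

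Ceramide synthases moved in opposite directions. Cers3 (ENSMUSG00000030510), the synthase that accepts ultra-long acyl chains, was at 40.6, 41.1 and 43.9 CPM in wild type and 17.3, 17.4 and 17.7 CPM in knockout libraries. Among the 10 genes its knockout libraries were the closest to each other (coefficient of variation 1.11%). It fell by 1.26 ± 0.08 log2 units (SE, n = 3 each, edgeR adjusted p = 1.22e-09). Cers2, which prefers very long chains and serves most tissues, moved the other way, from 22.4 ± 0.582 to 52.0 ± 1.54 CPM. Its rise was 1.21 ± 0.07 log2 units (SE, n = 3 each, edgeR adjusted p = 7.8e-10). Cers4 rose from 1.15 ± 0.305 to 3.22 ± 0.134 CPM, Cers6 fell from 4.23 ± 0.529 to 2.19 ± 0.553 CPM, and Cers5 stayed without a call (0.02 log2 units, edgeR adjusted p = 0.856).

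The sum of the family differed little between the genotypes. Per kilobase of exon the 6 synthases summed to 23.7 ± 0.807 CPM per kb in wild type and 24.3 ± 0.342 CPM per kb in knockout cells, and the ranges of the libraries overlapped. Without division by length the sum was 81.8 to 87.3 CPM in wild type and 88.6 to 91.1 CPM in knockout libraries, with every knockout library above every wild type library. Cers3 made up 54.4%, 53.2% and 55.0% of the sum per kilobase in wild type libraries and 21.6%, 22.3% and 22.4% in knockout libraries. Cers2 made up 25.9%, 26.0% and 25.4% of the same sum in wild type, then 59.4%, 57.9% and 57.4% in knockout libraries. Reads of Cers3 were 0.984, 0.947 and 1.01 times those of all the other Cers genes together in wild type, and 0.235, 0.244 and 0.244 times in knockout libraries (4.07-fold lower, exact permutation p = 0.1, adjusted p = 0.12 over 6 ratios).

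**Figure D2:**
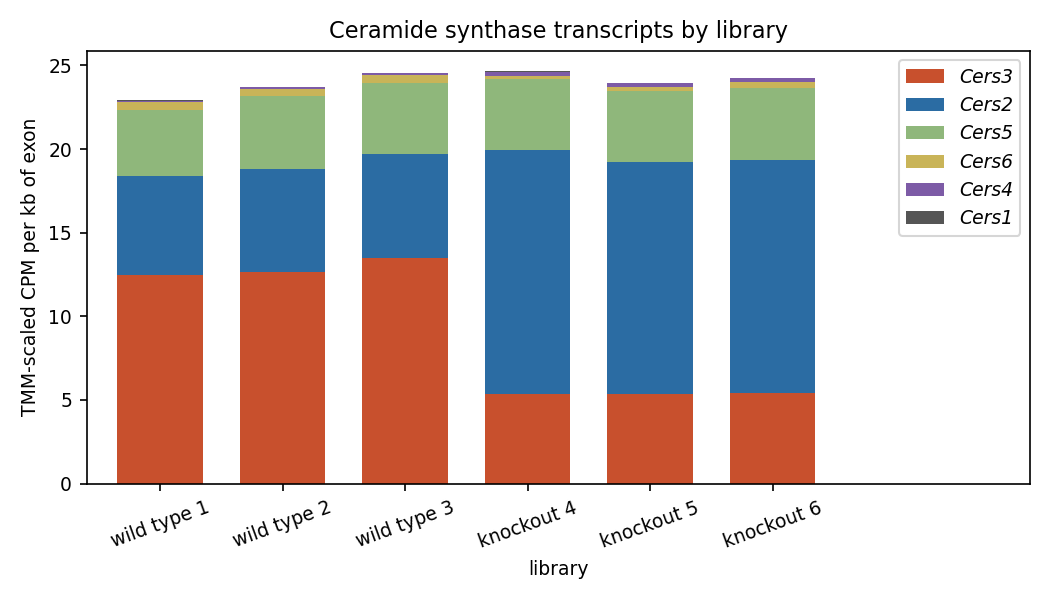
Stacked TMM-scaled CPM per kb of exon of the 6 ceramide synthase genes in each library. Bar heights lie between 22.9 and 24.6 CPM per kb in all 6 libraries, while Cers3 (bottom, orange) shrinks from over 53% to under 23% of the bar and Cers2 (blue) grows from about 26% to over 57%.

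Transcripts for the esterification with linoleate showed a wide split between an enzyme and its partner. Pnpla1 (ENSMUSG00000043286), which moves linoleate from triglyceride onto the omega-hydroxyceramide, was at 36.4, 36.4 and 37.0 CPM in wild type and 3.29, 4.84 and 4.72 CPM in knockout libraries. The wild type libraries hardly differed and the knockout libraries were all under 5 CPM, with replicate 4 the lowest. It fell by 3.09 ± 0.13 log2 units (SE, n = 3 each, edgeR adjusted p = 1.39e-11). Abhd5 (ENSMUSG00000032540), the lipid droplet protein that activates Pnpla1 and also the triglyceride lipase Pnpla2, was at 150.4, 139 and 155 CPM against 92.8, 95.0 and 92.2 CPM. Its fall was 0.67 ± 0.06 log2 units (SE, edgeR adjusted p = 1.5e-07). For each read of Abhd5 there were 0.242, 0.262 and 0.238 reads of Pnpla1 in wild type and 0.0354, 0.0510 and 0.0512 in knockout libraries (5.47-fold lower, exact permutation p = 0.1, adjusted p = 0.12 over 6 ratios).

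Relatives of Pnpla1 moved in both directions and by less. Pnpla2, the main triglyceride lipase and another partner of Abhd5, went up from 51.0 ± 2.91 CPM (SD) to a knockout mean of 67.4 ± 0.900 CPM. The rise was 0.40 ± 0.07 log2 units (SE). Pnpla7 rose by 0.63. Pnpla8 fell by 0.44, and Pnpla3 and Pnpla6 were not called (log2 fold changes -0.02 and 0.11). Pnpla6 was called higher with library totals (0.31). Antisense genes overlap the exons of Pnpla1 (Pnpla1os, 644 of 4837 bases) and Abhd5 (A730085K08Rik, 950 of 5956 bases). Their own rows had at most 19 and 21 counts in a library, and Elovl1 shares 53 of 2726 bases with Cdc20 on the other strand. The strand setting of the counting is not given in the sources used here, so reads in those stretches are uncertain.

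The genes of glucosylation and of transport fell by different amounts. Ugcg (ENSMUSG00000028381), the enzyme that glucosylates ceramides for storage, was at 99.7, 85.0 and 92.2 CPM in wild type and 24.8, 23.0 and 22.4 CPM in knockout libraries. It fell by 1.98 ± 0.08 log2 units (SE, n = 3 each, edgeR adjusted p = 7.17e-12), about as far as Cyp4f39. Abca12 (ENSMUSG00000050296), which loads glucosylceramides into lamellar granules, was at 213, 176 and 187 CPM against 112, 126 and 145 CPM. Among the 10 genes it had the narrowest gap relative to its spread, with the highest knockout library at 145 and the lowest wild type library at 176 CPM. The fall was 0.59 ± 0.09 log2 units (SE, n = 3 each, edgeR adjusted p = 5.05e-05), 0.69 without knockout replicate 6 and 0.39 with library totals. Abca12 reads were 2.14, 2.07 and 2.03 times those of Ugcg in wild type and 4.53, 5.50 and 6.45 times in knockout libraries. Cers3 reads were 0.407, 0.483 and 0.476 times those of Ugcg in wild type and 0.701, 0.757 and 0.789 times in knockout libraries. Both ratios were higher in all knockout libraries (2.61-fold and 1.65-fold, exact permutation p = 0.1 for each, adjusted p = 0.12 over 6 ratios).

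Of the enzymes for oxidation of the linoleate, both lipoxygenases fell. Alox12b (ENSMUSG00000032807) takes the first step and was at 17.6, 15.2 and 17.5 CPM in wild type and 4.09, 6.85 and 4.72 CPM in knockout libraries. Its knockout libraries were the most scattered of the 10 genes (coefficient of variation 27.7%), with replicate 5 the highest. The log2 fold change was -1.68 ± 0.16 (SE, n = 3 each, edgeR adjusted p = 2.31e-07). Aloxe3 (ENSMUSG00000020892), which converts the product of Alox12b to an epoxyalcohol, was at 47.7, 41.0 and 41.7 CPM against 13.9, 17.7 and 15.8 CPM. It fell by 1.46 ± 0.10 log2 units (SE, n = 3 each, edgeR adjusted p = 4.22e-09). The ratio of Aloxe3 to Alox12b reads was 2.71, 2.70 and 2.38 in wild type and 3.39, 2.58 and 3.35 in knockout libraries, with overlapping groups (log2 difference 0.25, exact permutation p = 0.3, adjusted p = 0.3 over 6 ratios). A change in that ratio was therefore not detected, and with these 6 libraries an equal fall was not shown either.

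Among the other lipoxygenase genes, Alox12 had no call, at 9.85 ± 0.709 and 9.06 ± 0.316 CPM (-0.12 log2 units, edgeR adjusted p = 0.382). Alox5 rose from 0.372 ± 0.0524 to 1.00 ± 0.144 CPM. Alox12e was called higher at 0.0179 and 0.240 CPM, a call that was lost without knockout replicate 4, and Alox8 and Alox15 were at most 0.122 CPM on average and not called. Of the family's per-length level Alox12b made up 42.3% ± 1.56 in wild type and 29.4% ± 4.68 in knockout cells, and Aloxe3 41.8% ± 1.99 and 34.2% ± 0.839. That level went from 16.3 ± 0.886 to 7.21 ± 0.829 CPM per kb (SD, n = 3 each).

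**Figure D3:**
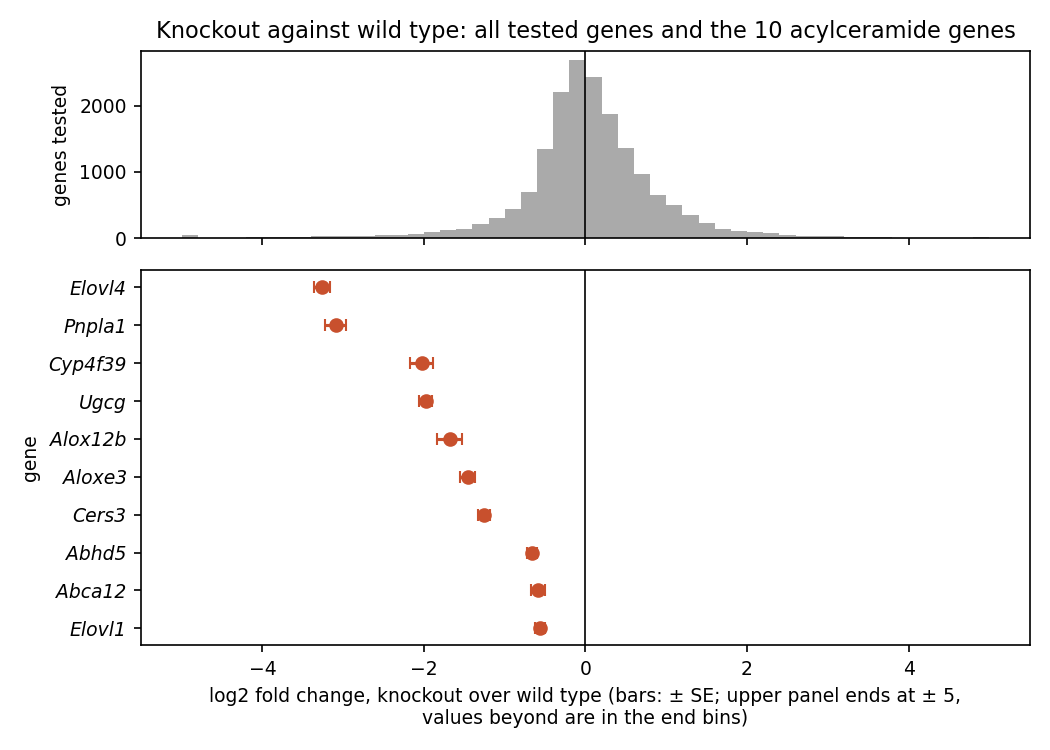
Upper panel, the number of tested genes by log2 fold change (knockout over wild type); lower panel, the 10 acylceramide genes with ± SE. All 10 lie left of 0, from -3.26 for Elovl4 to -0.56 for Elovl1, while the distribution of all 17659 genes is centred near 0.

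The order of the 10 genes by level differed between the genotypes. Per kilobase of exon, Elovl4 (56.3 ± 2.08 CPM per kb) and Elovl1 (53.6 ± 1.36) led in wild type cells and overlapped, followed by Abhd5 (24.9 ± 1.41) and Ugcg (17.7 ± 1.41). Abca12 (13.0 ± 1.29) and Cers3 (12.9 ± 0.553) overlapped, Pnpla1 (7.57 ± 0.0683) came next, Alox12b (6.89 ± 0.565) and Aloxe3 (6.79 ± 0.576) overlapped, and Cyp4f39 was last (5.03 ± 0.516). In knockout cells Elovl1 (36.2 ± 1.65 CPM per kb) stood alone at the top, ahead of Abhd5 (15.7 ± 0.244) and Abca12 (8.62 ± 1.10). Elovl4 (5.87 ± 0.922) overlapped with Cers3 (5.37 ± 0.0597), Ugcg followed (4.49 ± 0.233), Aloxe3 (2.47 ± 0.301) and Alox12b (2.15 ± 0.595) again overlapped, and Cyp4f39 (1.23 ± 0.219) and Pnpla1 (0.886 ± 0.179) were the lowest.

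Knockout replicate 5 had the highest knockout level of 7 of the 10 genes, all but Cers3, Abca12 and Ugcg. That library was also the highest knockout library for 20 of 21 protein genes of the cornified layer, and for 31.7% of all tested genes. Without it the log2 fold changes were -3.40 for Elovl4, -3.20 for Pnpla1, -2.18 for Cyp4f39, -1.93 for Alox12b and -1.55 for Aloxe3. Each was further from 0 than with it, which follows from leaving out the highest knockout library of these genes.

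Genes around the 10 were followed through 9 lists of the wider barrier pathway, which name 143 other genes. Of the 135 tested, 79 were called lower and 21 higher, and 35 had no call. The median of their log2 fold changes was -0.46. Over all tested genes, 23.7% were called lower and 24.8% higher. The lists nearest to terminal differentiation were the lowest. All 21 protein genes of the cornified layer were called lower (median -2.07), among them the envelope plakin Ppl (-1.40) and the protease Casp14 (-2.03). Tgm3, a transglutaminase of that layer, went from 6.14 ± 1.36 to 0.0637 ± 0.0190 CPM. The acylceramide genes and the protein genes of the same layer were thus lower in the same libraries, and the part of this shared change in either was not tested.

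Genes of the steps after the lipoxygenases were mostly lower too. In the list of linoleate oxidation and attachment, 8 of 9 were called lower and 1 higher (median -0.99). The shares over all tested genes were 23.7% lower and 24.8% higher. Sdr9c7, a dehydrogenase that oxidises the epoxyalcohol made by Aloxe3, fell from 29.9 ± 3.95 to 3.45 ± 0.702 CPM (SD, n = 3 each). Tgm1, the transglutaminase that crosslinks the envelope, fell from 414 ± 28.4 to 64.7 ± 8.87 CPM, and Nipal4, an ichthyosis gene of the same pathway, by 1.11. Ephx2 was the higher one (log2 fold change 0.40, edgeR adjusted p = 0.0415). Its call was lost without wild type replicate 2 or 3 and without knockout replicate 4 or 6.

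Genes for the general synthesis of fatty acids and ceramides moved in both directions. Calls were even in the elongation list, and lower calls outnumbered higher ones in the lists of fatty acid synthesis and ceramide synthesis. Among all genes tested, 23.7% were called lower and 24.8% higher. In the list of other elongation genes 3 of 9 were called lower and 3 higher (median 0.10), with the dehydratase gene Hacd4 up from 0.259 ± 0.166 to 2.24 ± 0.347 CPM and the reductase genes Hsd17b12 up by 0.51 and Tecr down (-0.27). Tecr was not called with library totals (-0.07). For fatty acid synthesis, desaturation and uptake, 8 of 19 were called lower and 4 higher (median -0.12). Fabp5, the fatty acid carrier of keratinocytes, was at 10.5% of its wild type level. The acyl-CoA synthetase gene Acsl1 fell from 23.2 ± 2.11 to 5.43 ± 0.687 CPM and Slc27a4, an acyl-CoA synthetase that barrier formation requires, from 166 ± 5.80 to 76.7 ± 5.04 CPM, whereas the desaturase gene Fads1 rose by 0.95 and Slc27a3 by 1.50. In ceramide synthesis 7 of 15 were called lower and 4 higher (median -0.14). Its deepest named falls were in Degs2, which makes the phytoceramides typical of skin, from 66.8 ± 7.60 to 7.35 ± 1.72 CPM, and in Sptlc3, a skin-enriched subunit of serine palmitoyltransferase, from 5.58 ± 0.857 to 1.30 ± 0.469 CPM. Sptlc2, the widely used subunit, fell by 0.63.

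Genes of sphingolipid processing and granule traffic were mixed too, with more called lower than higher in each list. Among all genes tested, 23.7% were called lower and 24.8% higher. Of 21 genes of ceramide turnover, 9 were called lower and 4 higher (median -0.04). Psap, whose saposins help to remove glucose from glucosylceramide, fell from 2147 ± 68.0 to 922 ± 25.4 CPM, the glycolipid transfer gene Gltp from 407 ± 11.2 to 113 ± 6.69 CPM and the phosphatase gene Sgpp1 by 1.23. The ceramidase gene Acer2 and the sphingosine kinase gene Sphk1 rose by 0.87 and 0.80. Of 11 genes in the list of lamellar granule traffic 6 were called lower and 3 higher (median -0.24). Tmem79, a granule membrane protein, was down by 1.26, the tight junction gene Cldn1 by 1.03 and Clip1 by 1.04. Myo5b and Vipas39 were up by 1.01 and 0.26.

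Of 15 genes of triglyceride handling, which supplies the linoleate for Pnpla1, 8 were called lower and 2 higher (median -0.57). The shares over all tested genes were 23.7% lower and 24.8% higher. Dgat2, an enzyme that makes triglyceride, fell from 65.4 ± 1.18 to 11.8 ± 2.26 CPM, the lipase gene Lipm from 24.8 ± 1.98 to 5.56 ± 0.526 CPM and the droplet coat gene Plin2 from 889 ± 45.2 to 453 ± 11.8 CPM. Mgll rose by 0.55 and Pnpla2, given above, by 0.40. Of 15 tested regulators of barrier lipid genes 9 were called lower, 0 higher and 6 were not called (median -0.41). Ovol1, a zinc finger repressor gene of differentiating keratinocytes, fell from 244 ± 34.6 to 43.2 ± 4.24 CPM. Grhl1 and Trp63, factors of the epidermal barrier and of stratified epithelia, were at 15.2% and 25.9% of their wild type level in knockout cells.

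**Figure D4:**
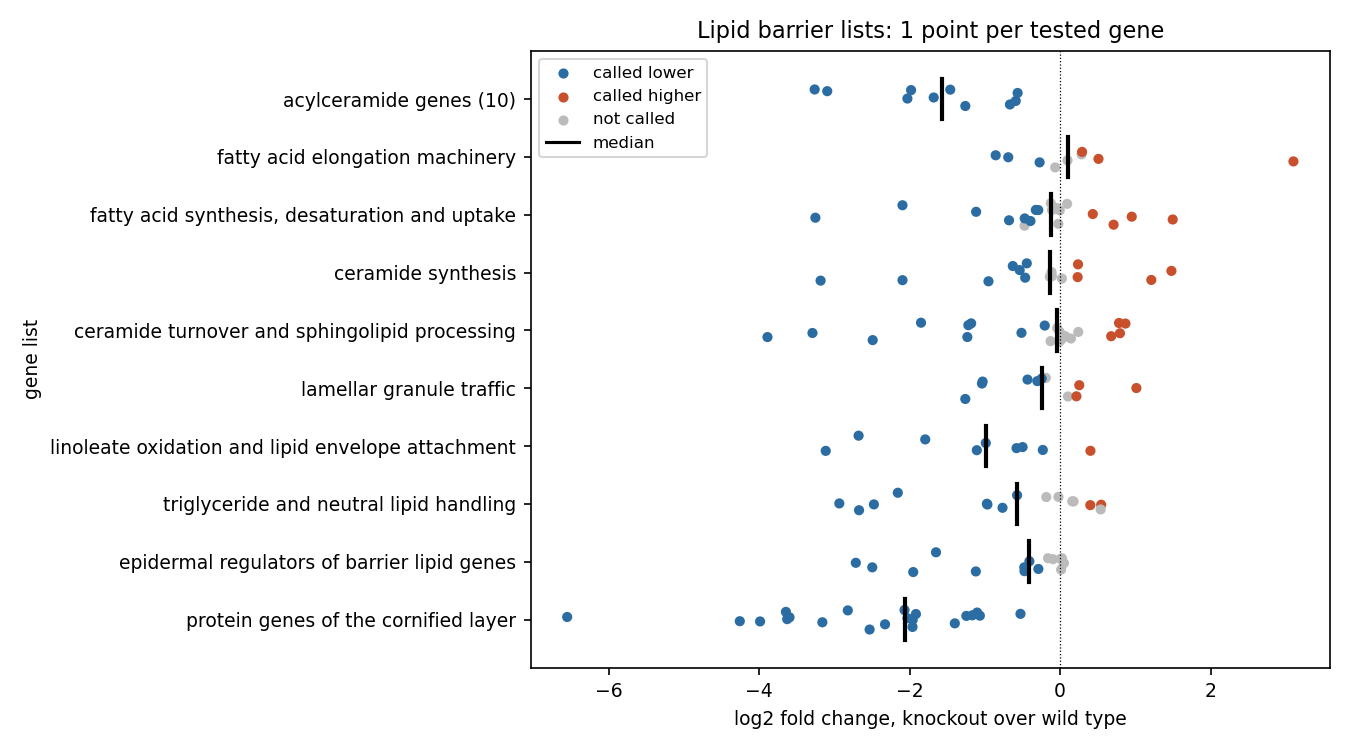
Log2 fold change (knockout over wild type) of each tested gene in the acylceramide set and the 9 wider lists, coloured by the edgeR call, with the median of each list as a black line. The medians lie between -2.07 (protein genes of the cornified layer) and 0.10 (fatty acid elongation machinery), and the acylceramide genes have theirs at -1.57 with none called higher.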

How the data were processed

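RNA-seq counts per gene of 6 libraries were used as deposited by the authors: raw read counts in 1 table, not normalised. The submitters' processing notes name STAR, HTSeq, FastQC and DESeq2, and the builds GRCm39 and mm39; versions, annotation release and strand setting: not given in the sources used here. Each library's group is the genotype of its label. All rows name genes; 52083 of 55416 identifiers matched a symbol. The 10 genes, the lists and the alternatives were chosen with earlier results of these data known.

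The main test was edgeR 4.0.16 (R 4.3.3), quasi-likelihood with robust dispersion, genotype as the only factor, filterByExpr at a minimum count of 10 (17659 genes), TMM scaling, and a Benjamini-Hochberg adjusted p under 0.05 over all genes. Standard errors are the log2 fold change over the square root of F. CPM are TMM-scaled. Per-length levels use the union of exons in GENCODE M21 (GRCm38), as an approximation. Ratios of 2 genes were tested by two-sided exact permutation. Named genes are the 10, Cebpb, every tested gene of the Elovl, Cers, Alox, Cyp4f and Pnpla families, and up to 3 genes called lower and 2 called higher with the smallest p per list (mean of at least 1 CPM). Totals of 81256192 to 122797031 counts set the depth. Scripts were tested on simulated data. Alternatives were DESeq2 size factors, library totals, no filter, a mean of at least 1 CPM, DESeq2 1.42.0, limma voom 3.58.1, thinning to the smallest total, and leaving out each library.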

Additional observations from a re-analysis of the deposited data

How the results depend on the processing

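All 10 acylceramide genes kept their direction and their call in each of 13 alternatives, and none had overlapping groups under the scalings and left-out libraries tried. Leaving out 1 library at a time moved Elovl4 between -3.40 and -3.17 and Alox12b between -1.93 and -1.53. Scaling by library totals raised the median of all genes by 0.20 log2 units and gave a median of -1.37 for the 10. With it 2452 genes were called lower instead of 4192, and higher calls made up 72.5% instead of 51.1% of all calls. The same scaling called 5 other elongation genes, 7 ceramide turnover genes and 3 regulators higher. The count of linoleate oxidation genes called higher ranged from 0 to 1 without 1 library. Over 56 other named genes, 703 of 716 values kept direction and call, 6 lost a call, 7 gained one and 0 reversed. No paired analysis was possible because the libraries are numbered 1 to 6 and the genotypes share no number. The labels name no batch, and 3 libraries per genotype limit the ratios to an exact p of 0.1.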

Other observations

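Of the ceramidase genes, which release the sphingoid base from ceramide, Acer1 was lower, Acer2 and Asah1 were higher, and Acer3 and Asah2 were not called. All genes of this paragraph except Acer2 were chosen after their values were seen. Acer1, the ceramidase of differentiated epidermis, fell from 5.58 to 0.994 CPM (mean of 3 libraries each), while the lysosomal ceramidase gene Asah1 rose from 64.0 to 103 CPM. Acer3 and Asah2 had log2 fold changes of 0.14 and 0.24 (edgeR adjusted p = 0.377 and 0.177). Sphingomyelin synthase genes were split as well, with Sgms1 lower (13.6 and 5.98 CPM) and Sgms2 higher (1.21 and 2.08 CPM). Ephx3, an epoxide hydrolase that can act on the product of Aloxe3, fell from 14.8 to 4.26 CPM, and Lipe, the hormone-sensitive lipase gene, from 124 to 16.2 CPM. Ppard, the PPAR of keratinocytes, was at 95.1 and 95.7 CPM and was not called (edgeR adjusted p = 0.932), and Ppara and Pparg had at most 2 counts in a library.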
